A study of Mus musculus with 12 samples.

Results

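The erythroid lineage genes described here are 32 mouse genes that mark the path from progenitor to red cell: transcription regulators, the erythropoietin and transferrin receptors, adult globins with their chaperone, haem and carbonic anhydrase enzymes, the proteins of the red cell membrane, and Trim10. They were chosen by symbol and looked up by Ensembl gene ID in tables that list 56748 IDs per library. An ID was found for 31 of the 32 genes, and Ahsp, the alpha-globin chaperone, was not analysed here. Of the 31 genes, 30 passed the filter on low counts and were tested, and Icam4 did not pass.

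RNA-seq was carried out on 12 libraries of murine Lin-Sca+Kit+ (LSK) bone marrow (BM) cells, the sorted fraction that holds stem cells and multipotent progenitors. In both groups, B6.SJL CD45.1 recipient mice aged 8-12 weeks had been irradiated with 2 doses of 4.25 Gy given 3 h apart and transplanted with CD45.2 BM cells of SCLtTA/BCR-ABL double transgenic (DTG) mice, which came from a frozen pool of donors of both sexes. In these cells an enhancer of the SCL (Tal1) gene drives a transactivator that tetracycline (TET) keeps inactive, so BCR::ABL1, the fusion kinase of chronic myeloid leukaemia (CML), is switched on when TET is withdrawn. All recipients drank TET for 2 weeks, after which it was continued in the CTRL group (6 libraries, BCR::ABL1-) or removed for 2 weeks in the CML 2wk group (6 libraries, BCR::ABL1+). TET intake and BCR::ABL1 thus differ together between the groups and cannot be told apart. CD45.2+ LSK cells were then sorted. Cells of both groups carry the transgenes, and the recipients' own CD45.1 cells were outside the gate. The labels do not tie each library to a separate recipient, so the p-values measure the spread among these libraries.

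Red cells arise when a progenitor commits under GATA1 and its partners, responds to erythropoietin through its receptor, and then switches on KLF1 targets, haem synthesis, globin chains and the spectrin skeleton. Multipotent cells of the LSK gate are known to carry low levels of lineage genes before commitment. Early genes such as Gata1, Klf1 and Epor appear in committed progenitors, whereas globins, band 3 (Slc4a1) and Alas2 belong to haemoglobin-making erythroblasts.

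Depth was 22804754 to 41832868 counts per CTRL library and 16150817 to 25070105 per CML 2wk library. Genes with counts numbered 26783 to 28602 per CTRL library and 22965 to 25726 per CML 2wk library, without overlap. Mitochondrial genes took 0.816% to 1.29% of counts in CTRL and 2.26% to 2.97% in CML 2wk, and the common biological coefficient of variation was 10.8% and 32.6%. The labels name all CTRL samples male and all CML 2wk samples female, but Xist was at 3794 to 4425 CPM in CTRL and 2183 to 3502 CPM in CML 2wk, and the Y-linked Ddx3y reached 8.64 CPM in CML 2wk replicate 2 and at most 0.588 CPM in CTRL. Sex as labelled and group cannot be told apart. The CTRL levels are not those of male cells, but the labels do not say whether the sex given is that of the recipient or of the donor cells that were sequenced. Genes of stromal cells were far higher in CML 2wk replicates 2 and 4 than elsewhere. The human BCR::ABL1 transgene is not among the mouse genes counted, so its level was not checked.

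The promoters of a few members are shown first, because GATA1 and KLF1, themselves among the genes measured, bind short motifs known as GATA and CACCC motifs. Each line gives the 250 bases before the annotated start in RefSeq (build GRCm38.p6), 5′ to 3′ on the strand of the gene, for the regulator Klf1, the receptor Epor, the 2 adult beta-globin genes, one alpha-globin gene and Trim10. Capitals mark a GATA motif (GATAA or GATAG with an A or T before it) or a CACCC motif (CCNCNCCC, where N is any base), on either strand, and matches that overlap run together.
Klf1, chr8:84901732-84901981, plus strand: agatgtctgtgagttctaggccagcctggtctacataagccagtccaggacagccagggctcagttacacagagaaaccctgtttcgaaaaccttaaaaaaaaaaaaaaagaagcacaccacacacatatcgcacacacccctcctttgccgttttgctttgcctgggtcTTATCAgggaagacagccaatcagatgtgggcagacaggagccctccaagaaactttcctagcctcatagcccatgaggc
Epor, chr9:21963577-21963826, minus strand: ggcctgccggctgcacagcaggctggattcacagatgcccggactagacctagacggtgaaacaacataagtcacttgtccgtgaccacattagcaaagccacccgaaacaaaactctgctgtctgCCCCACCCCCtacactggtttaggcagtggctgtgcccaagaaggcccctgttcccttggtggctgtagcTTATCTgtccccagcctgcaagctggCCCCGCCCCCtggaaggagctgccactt
Hba-a1, chr11:32283422-32283671, plus strand: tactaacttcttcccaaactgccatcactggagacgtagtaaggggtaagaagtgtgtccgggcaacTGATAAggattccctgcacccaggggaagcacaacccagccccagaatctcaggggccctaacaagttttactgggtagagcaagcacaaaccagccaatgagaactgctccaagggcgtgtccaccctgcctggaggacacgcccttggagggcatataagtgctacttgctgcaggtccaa
Hbb-bs, chr7:103827929-103828178, minus strand: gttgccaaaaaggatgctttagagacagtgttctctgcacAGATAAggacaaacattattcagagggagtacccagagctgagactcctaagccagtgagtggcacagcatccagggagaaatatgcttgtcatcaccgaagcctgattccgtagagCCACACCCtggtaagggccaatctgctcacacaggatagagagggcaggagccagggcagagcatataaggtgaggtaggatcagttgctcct
Hbb-bt, chr7:103813924-103814173, minus strand: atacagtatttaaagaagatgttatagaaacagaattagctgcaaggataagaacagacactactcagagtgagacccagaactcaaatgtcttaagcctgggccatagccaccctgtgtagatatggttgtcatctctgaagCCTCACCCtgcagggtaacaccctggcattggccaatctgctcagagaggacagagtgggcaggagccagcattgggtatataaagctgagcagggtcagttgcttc
Trim10, chr17:36869324-36869573, plus strand: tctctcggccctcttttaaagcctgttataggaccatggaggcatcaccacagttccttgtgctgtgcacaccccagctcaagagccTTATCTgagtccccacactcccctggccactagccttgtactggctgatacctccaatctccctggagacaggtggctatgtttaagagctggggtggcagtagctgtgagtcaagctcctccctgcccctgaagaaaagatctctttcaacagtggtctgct

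Promoter windows were found for 25 of the 32 members (30 windows, since some genes have several starts), and none was at hand for Nfe2, Car1, Car2, Slc4a1, Ank1, Cldn13 and Ahsp. A GATA motif occurred in 16 of the 30 windows (53.3%), against 26.5% of all 32851 RefSeq windows of the same length. A CACCC motif occurred in 19 of the 30 windows (63.3%), against 45.9% of all windows. The stricter CCACACCC, which is contained in the CACCC motif, was present in 2 windows (6.67%, against 3.20% of all), of which one is that of Hbb-bs. These matches are descriptions of the letters, and they were not used in any test. Hbb-bs held one motif of each kind, whereas Hbb-bt held a CACCC motif and no GATA motif in these 250 bases.

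The first question was whether the erythroid genes as a group differed between BCR::ABL1+ and BCR::ABL1- LSK. Of the 30 genes tested, 26 were lower in CML 2wk at an adjusted p under 0.05 (edgeR quasi-likelihood test, adjusted over all 18438 genes tested), 0 were higher and 4 were not called. Many genes changed in this comparison: 29.0% of all genes tested were called lower, 30.6% higher and 59.5% in either direction. The members' share of lower calls was 86.7%. Their median log2 fold change was -1.64, while that of all genes tested was 0.067. By the plain spread, every CML 2wk library lay below every CTRL library for 21 of the 30 members, against 20.6% of all genes tested. Since these are bulk libraries, fewer erythroid-primed cells in the gate and less RNA per cell cannot be told apart.

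Part of the count follows from the filter, which required a level of 0.416 CPM (counts per 1e+06 counts of a library) in 6 libraries. In 11 of the 30 genes that level was reached in all CTRL libraries but not in all CML 2wk libraries. These were Hba-a1, Hba-a2, Hbb-bs, Slc4a1, Tmod1, Rhd, Ache, Kel, Cldn13, Tspo2 and Trim10. Hba-a1, Hba-a2 and Trim10 reached it in at most 2 CML 2wk libraries, so they were tested because of their level in CTRL. The other 19 genes reached it in all 12 libraries, and 16 of these were lower in CML 2wk. The share of lower calls among all genes that reached it in all 12 libraries was not computed. The 29.0% given above is over all genes tested, a different set.

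**Figure D1:**
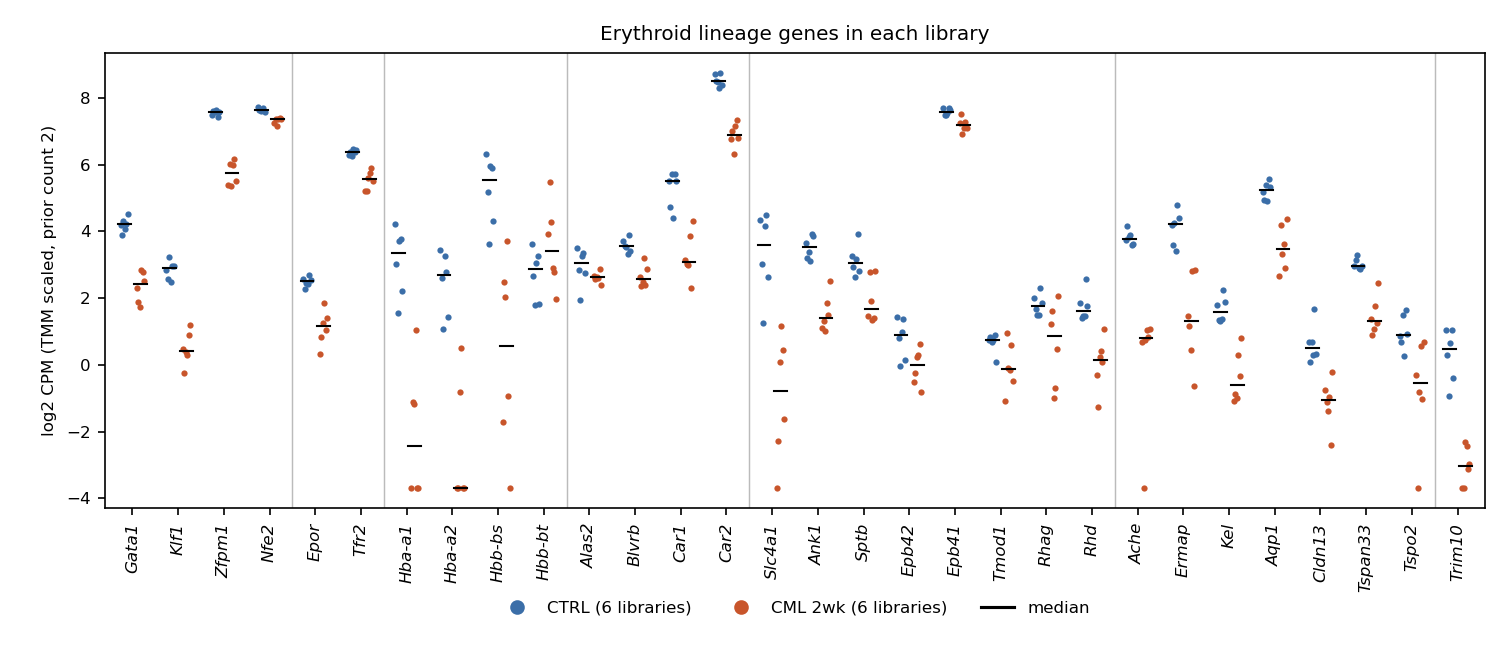
Level of each of the 30 genes tested in each library, as log2 CPM with a prior count of 2 (y axis). Genes run along the x axis by role, with the regulators at the left and Trim10 at the right. Blue points are the 6 CTRL libraries, orange points the 6 CML 2wk libraries, and black bars the group medians. Points at the bottom of the plot are libraries with a count of 0. The regulators Gata1, Klf1 and Zfpm1 were lower in all CML 2wk libraries, with Klf1 at 0.770 to 2.22 CPM against 5.56 to 9.42 CPM in CTRL.

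All 4 transcription regulators fell, and none had overlapping groups. Values below are CPM scaled by TMM factors, which correct for differences in composition among libraries. Gata1, the zinc finger factor that commits progenitors to the erythroid and megakaryocytic path (ENSMUSG00000031162), ranged from 14.7 to 22.7 CPM in CTRL (median 18.4) and from 3.25 to 7.05 CPM in CML 2wk (median 5.27). Its log2 fold change was -1.82 (SE 0.189, adjusted p = 1.47e-06). Klf1, the zinc finger activator of adult beta-globin and many membrane genes (ENSMUSG00000054191), ranged from 5.56 to 9.42 CPM in CTRL (median 7.43) and from 0.770 to 2.22 CPM in CML 2wk (median 1.26), which was 5.11-fold lower (log2 fold change -2.35, SE 0.236, adjusted p = 1.08e-06). The lowest CTRL library of Klf1 was thus more than the highest CML 2wk library, that of replicate 6.

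Zfpm1, which encodes FOG1, the cofactor of GATA1, spanned 172.8 to 198.2 CPM in CTRL (median 192) and 40.7 to 71.7 CPM in CML 2wk (median 54.5). It was 3.43-fold lower (log2 fold change -1.78, SE 0.133, adjusted p = 9.68e-08), the smallest adjusted p among the members. Nfe2, a leucine zipper factor of globin loci and of platelet formation, moved far less, from 192.5 to 210.5 CPM in CTRL (median 200) to 142.7 to 170.3 CPM in CML 2wk (median 164). Although the groups did not overlap, its log2 fold change was only -0.33 (SE 0.0554, adjusted p = 1.48e-04). Gata1, Klf1 and Zfpm1 therefore fell by more than 3-fold while Nfe2 fell by 1.25-fold.

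Both receptors fell. Epor, the erythropoietin receptor, ranged from 4.80 to 6.38 CPM in CTRL (median 5.62) and from 1.19 to 3.53 CPM in CML 2wk (median 2.16), with a log2 fold change of -1.34 (SE 0.215, adjusted p = 8.81e-05). Tfr2, the second transferrin receptor and an iron sensor that associates with the erythropoietin receptor, ranged from 76.9 to 89.0 CPM in CTRL (median 83.3) and from 37.1 to 60.3 CPM in CML 2wk (median 47.2). Its log2 fold change was -0.82 (SE 0.107, adjusted p = 1.32e-05). No CML 2wk library reached the CTRL range for either receptor.

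**Figure D2:**
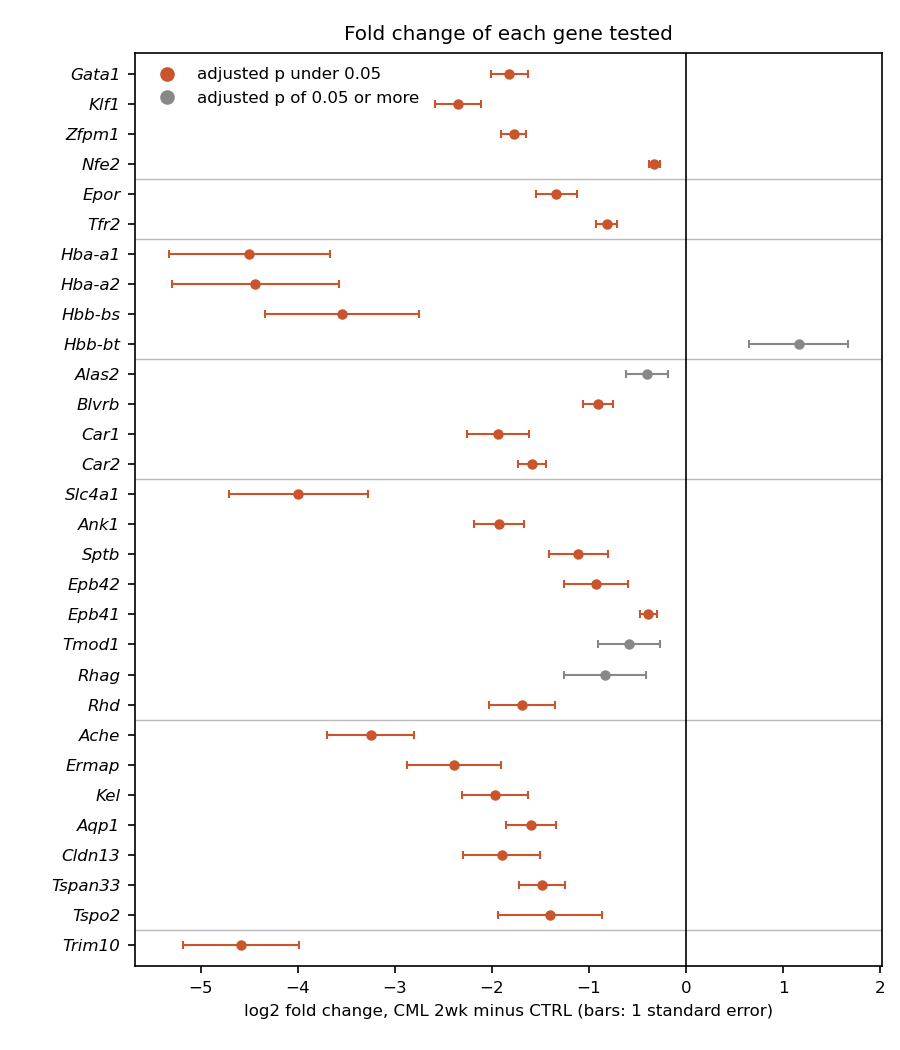
Log2 fold change of each gene tested, CML 2wk minus CTRL (x axis), with bars of 1 standard error; grey lines separate the roles. Orange points passed the adjusted p of 0.05 and grey points did not. Trim10, Hba-a1, Hba-a2 and Slc4a1 lie farthest to the left, between -4.59 and -4.00, and Hbb-bt at 1.16 is the one gene to the right of 0.

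The adult globins split. Hba-a1 and Hba-a2, the alpha-globin pair, and Hbb-bs, one of the beta-globin pair, had log2 fold changes of -3.55 to -4.50, whereas Hbb-bt did not fall. The size of these changes depended on CML 2wk replicate 4, without which the log2 fold change was -6.08 for Hba-a1, -6.22 for Hba-a2 and -4.46 for Hbb-bs. Hba-a1 (ENSMUSG00000069919) was at 18.5, 8.05, 2.84, 13.1, 13.7 and 4.57 CPM in CTRL replicates 1 to 6, and at 0, 0.385, 0.368, 2.01, 0 and 0 CPM in CML 2wk replicates 1 to 6. Its groups did not overlap, and the log2 fold change was -4.50 (SE 0.828, adjusted p = 2.91e-04). Hba-a1 passed the filter through the CTRL libraries, as did Hba-a2. Hba-a2 (ENSMUSG00000069917) was detected in CML 2wk replicates 3 and 4 alone, at 0.490 and 1.36 CPM, and ranged from 2.02 to 10.7 CPM in CTRL (log2 fold change -4.44, SE 0.862, adjusted p = 4.56e-04).

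Over the 6 libraries of each group, Hba-a1 and Hba-a2 gathered 2004 and 1261 counts in CTRL and 52 and 33 counts in CML 2wk. In the CML 2wk libraries listed at 0 for either gene, the floor of 3 counts corresponds to 0.1125 to 0.17 CPM on the TMM scale. Such floors and the counting intervals given below cover counting error only, since reads without molecular identifiers are not independent molecules.

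Hbb-bs (ENSMUSG00000052305) was at 80.1, 36.5, 12.2, 62.0, 59.2 and 19.6 CPM in CTRL replicates 1 to 6, and at 0.227, 5.56, 4.04, 13.1, 0.450 and 0 CPM in the CML 2wk replicates in the same order. It was 11.7-fold lower (log2 fold change -3.55, SE 0.796, adjusted p = 0.00145), and CML 2wk replicate 4 lay just within the CTRL range. Hbb-bt (ENSMUSG00000073940) was at 12.3, 6.26, 3.37, 8.29, 9.56 and 3.43 CPM in CTRL, and at 15.2, 44.2, 19.3, 7.38, 6.75 and 3.90 CPM in CML 2wk. CML 2wk replicates 1, 2 and 3 were above every CTRL library and the other three were within the CTRL range. Its log2 fold change of 1.16 (SE 0.510) did not pass the test (adjusted p = 0.0629). The 95% interval, taken as 1.96 SE on either side, ran from 0.16 to 2.16. It was not adjusted for the number of genes tested, and the normal multiplier makes it somewhat narrow for 12 libraries. Before adjustment, the p-value of the edgeR quasi-likelihood test was 0.0388. Without CML 2wk replicate 2, the highest library, the log2 fold change was 0.52 (adjusted p = 0.266). The call depended on the setting: Hbb-bt was called higher with upper-quartile scaling (adjusted p = 0.048), without replicate 6 of both groups (0.046), and when CTRL replicate 1 or CML 2wk replicate 4, 5 or 6 was left out (0.0239 to 0.0463).

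The split is plainest as the share of Hbb-bt among the counts of both beta-globin genes, a measure chosen after the values were seen and given without a test. In CTRL, Hbb-bt took 11.8% to 21.7% of the counts (median 14.3%). In CML 2wk it took 36.0% to 100% (median 91.3%), so the groups did not overlap. The lowest CML 2wk share, in replicate 4, was 136 of 378 counts (exact 95% binomial interval 31.1% to 41.0%), and the highest CTRL share, in replicate 3, was 90 of 415 counts (17.8% to 26.0%). The summed level of both genes overlapped between groups, at 15.5 to 92.3 CPM in CTRL and 3.90 to 49.8 CPM in CML 2wk.

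**Figure D3:**
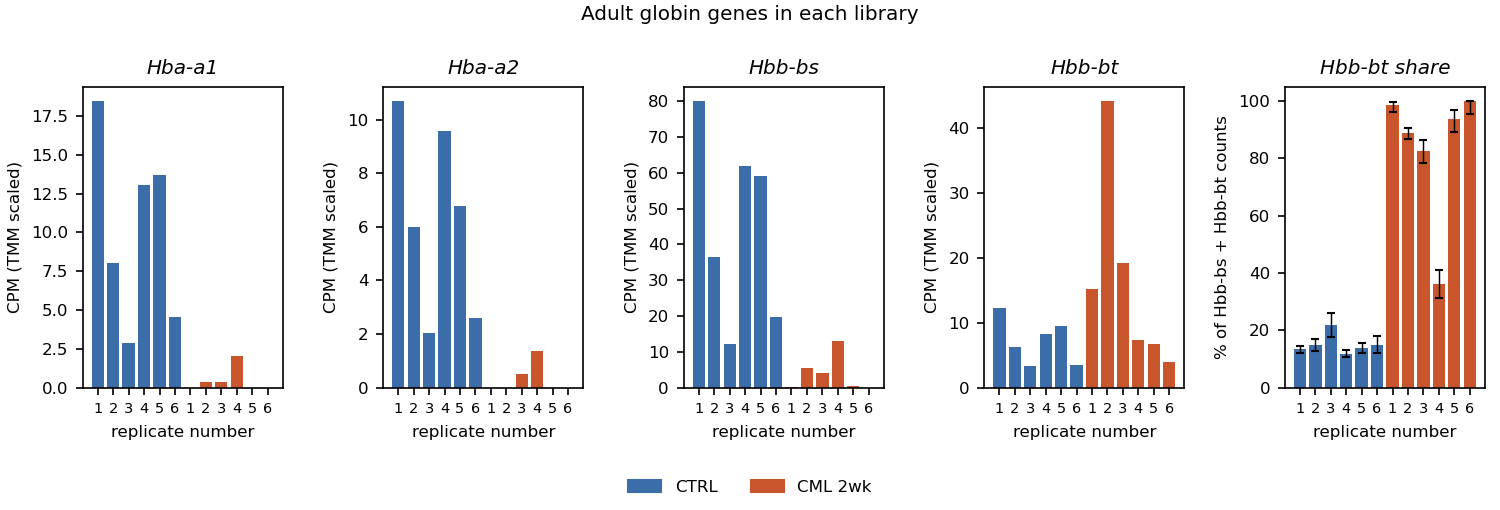
Adult globin genes in each library. The first 4 panels give CPM (y axes differ between panels) for CTRL replicates 1 to 6 in blue and CML 2wk replicates 1 to 6 in orange, and the last panel gives the percentage of beta-globin counts assigned to Hbb-bt, with exact 95% binomial intervals. Within CTRL, Hba-a1, Hba-a2 and Hbb-bs were lowest in replicates 3 and 6. In CML 2wk, Hbb-bs ran from 0 to 13.1 CPM, with replicate 4 within the CTRL range, while Hbb-bt was highest in CML 2wk replicate 2 at 44.2 CPM and its share was above 35% in all CML 2wk libraries.

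How reads were divided within each globin pair is uncertain, because the genes of a pair are near copies and the handling of reads that map to both is not stated. In GENCODE M21 (GRCm38), the 444 coding bases of Hbb-bs and Hbb-bt differ at 1 base, and the 429 coding bases of Hba-a1 and Hba-a2 also differ at 1 base. The 60 coding bases around each difference, numbered from the first base of the start codon, are shown with that base in capitals.
Hbb-bs, coding bases 385 to 444: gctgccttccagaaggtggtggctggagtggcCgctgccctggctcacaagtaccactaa
Hbb-bt, coding bases 385 to 444: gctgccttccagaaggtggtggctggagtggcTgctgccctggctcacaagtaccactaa
Hba-a1, coding bases 351 to 410: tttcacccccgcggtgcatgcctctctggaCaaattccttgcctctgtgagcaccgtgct
Hba-a2, coding bases 351 to 410: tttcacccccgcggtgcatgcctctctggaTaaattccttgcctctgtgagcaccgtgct
Over whole transcripts, 64.3% of the 75-base windows of Hbb-bs were also present in Hbb-bt, and 56.6% of those of Hbb-bt in Hbb-bs. For the alpha-globin pair, 62.2% of the windows of Hba-a1 were present in Hba-a2 and 81.0% of those of Hba-a2 in Hba-a1. The levels of single globin genes therefore rest on the remaining windows or on the counting rule, which applies to both groups.

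The enzymes of haem and carbon dioxide handling mostly fell. Car1 and Car2, cytosolic carbonic anhydrases of erythroid cells, both fell without overlap. Car1 ranged from 21.0 to 53.0 CPM in CTRL (median 45.5) and from 4.88 to 19.9 CPM in CML 2wk (median 8.46), and its log2 fold change was -1.94 (SE 0.316, adjusted p = 1.00e-04). Car2 ranged from 313.4 to 425.9 CPM in CTRL (median 361) and from 79.4 to 161.3 CPM in CML 2wk (median 120), a 3.01-fold difference (log2 fold change -1.59, SE 0.143, adjusted p = 4.14e-07). Blvrb, a flavin and biliverdin reductase of red cells, was at 9.98 to 14.8 CPM in CTRL and 5.09 to 9.12 CPM in CML 2wk (log2 fold change -0.91, SE 0.159, adjusted p = 1.89e-04).

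Alas2, the erythroid enzyme of the first step of haem synthesis, was not called (log2 fold change -0.40, SE 0.216, adjusted p = 0.124). It spanned 3.74 to 11.2 CPM in CTRL and 5.23 to 7.31 CPM in CML 2wk, so every CML 2wk library lay within the CTRL range. Leaving out CTRL replicate 3, which held the lowest value, gave -0.55 with an adjusted p of 0.00972. Apex2 overlaps Alas2 on the opposite strand in GENCODE M21 and gathered 4278 counts in CTRL and 3668 in CML 2wk. Strand use in counting is not stated. The same limit holds for Sptb, described below, which had 1643 counts in CTRL and 520 in CML 2wk. Plekhg3 on its opposite strand had 12642 and 7109. It also holds for Tmod1 (282 and 131 counts), where Tstd2 had 8244 and 5712. Genes on the same strand overlap Ache (Mir8116, 211 and 21 counts) and Kel (Gm37527, 83 and 10).

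Of the 15 tested genes for membrane proteins, 13 fell and 2 were not called, with a median log2 fold change of -1.60. Within the membrane skeleton and band 3 complex, 6 of 8 fell. Slc4a1 encodes band 3, the anion exchanger of the red cell membrane. It was at 20.03, 8.13, 2.32, 17.8, 22.5 and 6.11 CPM in CTRL replicates 1 to 6 and at 0, 0.128, 0.980, 2.17, 1.28 and 0.247 CPM in CML 2wk replicates 1 to 6. The highest CML 2wk library was just below the lowest CTRL library, and the log2 fold change was -4.00 (SE 0.718, adjusted p = 2.39e-04).

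Ank1, the ankyrin that ties band 3 to spectrin, ranged from 8.60 to 15.1 CPM in CTRL and from 1.96 to 5.67 CPM in CML 2wk (log2 fold change -1.93, SE 0.254, adjusted p = 1.41e-05). Sptb, the beta-spectrin chain, ranged from 6.10 to 15.1 CPM in CTRL and from 2.44 to 6.91 CPM in CML 2wk (-1.11, SE 0.307, adjusted p = 0.00621). Its CML 2wk replicates 2 and 6 reached the CTRL range. Epb42, protein 4.2, was low in both groups, at 0.898 to 2.65 CPM in CTRL and 0.493 to 1.46 CPM in CML 2wk (-0.92, SE 0.330, adjusted p = 0.0257), and its call was lost when either CTRL replicate 1 or 5 or CML 2wk replicate 1 or 6 was left out (adjusted p = 0.0505 to 0.0698).

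Epb41, protein 4.1, which is also made in many other cells, moved least among the called membrane genes, from 178.0 to 206.8 CPM in CTRL to 120.6 to 182.6 CPM in CML 2wk (-0.39, SE 0.0874, adjusted p = 0.00150). Tmod1, which caps the actin of the skeleton, was at 0.981 to 1.77 CPM in CTRL and 0.397 to 1.88 CPM in CML 2wk and was not called (-0.59, SE 0.316, adjusted p = 0.122). Its highest value in either group came from CML 2wk replicate 2, and without that library the log2 fold change was -0.87 with an adjusted p of 0.0150.

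The Rh proteins sit in the band 3 complex. Rhd, the Rh polypeptide, ranged from 2.58 to 5.93 CPM in CTRL and from 0.342 to 2.02 CPM in CML 2wk (-1.69, SE 0.341, adjusted p = 6.31e-04). Rhag, its partner glycoprotein, ranged from 2.73 to 4.87 CPM in CTRL and from 0.429 to 4.10 CPM in CML 2wk and was not called (-0.83, SE 0.425, adjusted p = 0.104). CML 2wk replicates 2 and 6 were within the CTRL range for Rhag, while replicates 3 and 4 were the lowest, and without CML 2wk replicate 6 it was called lower (-1.20, adjusted p = 0.0222).

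All 7 tested genes of the blood group and other surface proteins fell. Ache, the acetylcholinesterase that carries the Cartwright blood group, changed most: it ranged from 12.0 to 17.7 CPM in CTRL (median 13.7) and from 0 to 2.02 CPM in CML 2wk (median 1.66), with a log2 fold change of -3.25 (SE 0.446, adjusted p = 2.04e-05). CML 2wk replicate 2 had no count of Ache and the others lay between 1.53 and 2.02 CPM. Replicate 2 had 23712672 counts in total but the fewest genes with counts of all libraries (22965). Ermap, the Scianna blood group protein, ranged from 10.5 to 27.7 CPM in CTRL (median 18.7) and from 0.563 to 7.06 CPM in CML 2wk (median 2.42), with a log2 fold change of -2.39 (SE 0.480, adjusted p = 6.00e-04).

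Aqp1, the water channel of the Colton blood group, ranged from 29.8 to 47.6 CPM in CTRL (median 37.9) and from 6.24 to 20.5 CPM in CML 2wk (median 11.0), a log2 fold change of -1.60 (SE 0.254, adjusted p = 8.06e-05). Kel, the Kell endopeptidase, went from a CTRL median of 2.95 CPM to a CML 2wk median of 0.592 CPM (-1.97, SE 0.342, adjusted p = 1.80e-04). Tspan33, a tetraspanin of erythroid progenitors, went from a median of 7.71 CPM to one of 2.41 CPM (-1.49, SE 0.235, adjusted p = 7.62e-05). None of these groups overlapped.

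Cldn13, a claudin of mouse erythroid cells, was at 0.991 to 3.10 CPM in CTRL and 0.113 to 0.789 CPM in CML 2wk (-1.90, SE 0.396, adjusted p = 8.22e-04), without overlap. Tspo2, a translocator protein of late erythroblasts, overlapped between groups, at 1.14 to 3.06 CPM and 0 to 1.53 CPM (-1.40, SE 0.537, adjusted p = 0.0356). Its call was lost in 7 of the 12 fits that left out 1 library. Icam4, the Landsteiner-Wiener blood group protein, was listed at 0 in each of the 12 libraries, and a count of 0 allows for up to 3. An antisense gene that overlaps it in GENCODE M21 had 69 counts in CTRL and 51 in CML 2wk.

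Trim10, a RING finger protein needed for terminal erythroid differentiation, had a log2 fold change of -4.59 (SE 0.595, adjusted p = 1.20e-05). It was at 2.01, 1.15, 0.449, 1.50, 1.99 and 0.679 CPM in CTRL replicates 1 to 6, or 248 counts in all. The CML 2wk libraries held 6 counts in all and ranged from 0 to 0.123 CPM. The groups did not overlap, although the level was low in both. Trim10 passed the filter through the CTRL libraries, and with all libraries thinned to the smallest total Trim10 no longer passed the filter.

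**Figure D4:**
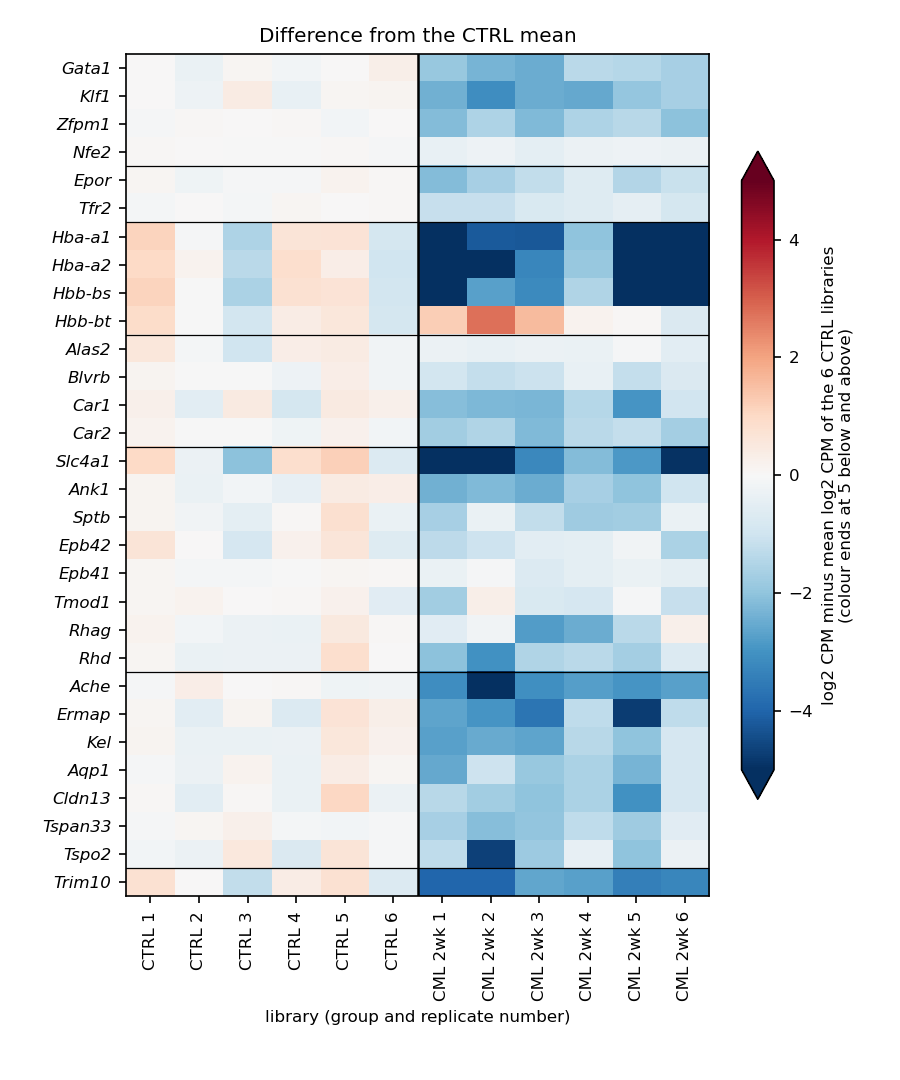
Difference of each gene in each library from the mean of the 6 CTRL libraries, on the log2 CPM scale (blue lower, red higher). Rows are the 30 genes tested by role and columns the 12 libraries. Hba-a1, Hba-a2, Hbb-bs, Slc4a1 and Trim10 were above the CTRL mean in CTRL replicates 1, 4 and 5 and below it in replicates 3 and 6, and Hbb-bt is the row with strong red in CML 2wk.

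The members did not vary together within CTRL. The globins Hba-a1, Hba-a2 and Hbb-bs, together with Slc4a1 and Trim10, had coefficients of variation over 50% among the CTRL libraries, with Slc4a1 9.68-fold higher in the highest library than in the lowest. By contrast, 13 members, among them Gata1, Klf1, Zfpm1, Epor, Car2 and Aqp1, had coefficients of variation under 20%. CTRL replicates 3 and 6 were the lowest pair for 11 members: Nfe2, Hba-a1, Hba-a2, Hbb-bs, Hbb-bt, Alas2, Slc4a1, Sptb, Epb42, Tmod1 and Trim10. For 10 others, Gata1, Klf1, Epor, Car1, Ank1, Rhd, Ermap, Aqp1, Cldn13 and Tspo2, the lowest pair was replicates 2 and 4. The first set thus held the 4 globins tested, Alas2 and all 5 members with a CTRL coefficient of variation over 50%. It also held the regulator Nfe2, whose order rests on small differences (192.5 to 210.5 CPM, coefficient of variation 3.43%). The second held Gata1, Klf1 and Epor, but also Tspo2 of late erythroblasts and several membrane genes. Whether the sets divide early from late genes was not tested.

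In CML 2wk, the coefficient of variation was larger than in CTRL for 28 of the 30 members (median 51.0%, against 25.9% in CTRL). Replicate 6 was the highest CML 2wk library for 13 members, which were Klf1, Car1 and 11 genes of membrane proteins. Replicate 4 was the highest for 7, including Hba-a1, Hba-a2, Hbb-bs and Slc4a1. Replicates 1, 5 and 6, which had no alpha-globin counts, differed in the other genes. Klf1 was at 1.30, 1.80 and 2.22 CPM in these libraries, and Aqp1 at 6.24, 7.39 and 20.5 CPM.

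Library numbers in the deposited data put replicates 1 to 5 of each group in a run of 5 consecutive numbers of its own, so that order and group cannot be told apart for them. Replicate 6 of CTRL and replicate 6 of CML 2wk carried numbers close to each other. Between these 2 libraries alone, with no test possible, 27 of the 30 members were lower in CML 2wk. The median log2 difference was -1.02 over the members and 0.0048 over all genes tested. The share of all genes lower between these 2 libraries was not computed, so the count of members has no background beside it. Gata1 differed by -1.99 and Klf1 by -1.77 there, while Sptb (0.00037), Rhag (0.20) and Hbb-bt (0.18) were not lower.

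The wider erythroid programme was described with lists of other genes of the same pathways. Of 18 other erythroid transcription factors and cofactors, 17 fell, 0 rose and 1 was not called, with a median log2 fold change of -0.82. Sox6, a partner in silencing embryonic globins, went from 28.1 to 37.8 CPM in CTRL to 6.32 to 10.1 CPM in CML 2wk (-1.92, SE 0.112, adjusted p = 2.11e-08). Foxo3, a factor of late erythroblast maturation, went from 327.9 to 349.5 CPM to 118.3 to 162.1 CPM (-1.31, SE 0.0801, adjusted p = 2.43e-08). Cbfa2t3, the ETO2 corepressor of the GATA1 and TAL1 complex, fell by 1.16 on the log2 scale (SE 0.0860, adjusted p = 9.24e-08), and Gata2, which precedes GATA1 in stem and progenitor cells, fell by 1.10 (SE 0.147, adjusted p = 1.64e-05). The uncalled gene was Spi1, encoding the myeloid factor PU.1 that opposes GATA1 (0.060, SE 0.0782, adjusted p = 0.526). Many of these factors also act in stem and megakaryocytic cells.

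Erythropoietin receptor signalling moved both ways: 4 of 12 genes fell, 2 rose and 6 were not called, and the median was -0.010. The 33.3% that fell was near the 29.0% of all genes tested. Stat5b and Stat5a, which carry the signal of the receptor, fell by 0.89 (SE 0.0716, adjusted p = 1.63e-07) and 0.77 (SE 0.0680, adjusted p = 3.88e-07) on the log2 scale. Socs3, a feedback inhibitor of cytokine receptors, rose from 4.53 to 8.82 CPM in CTRL to 28.0 to 50.7 CPM in CML 2wk (2.44, SE 0.177, adjusted p = 7.67e-08). Pim1 (0.0021, SE 0.0989) and Lyn (-0.023, SE 0.0528) were not called.

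Of the 17 genes of haem synthesis and iron uptake, 3 fell, 5 rose and 9 were not called, with a median of 0.12. All genes tested had 29.0% lower and 30.6% higher, so the share that rose was near that background. With upper-quartile scaling 8 of the 17 rose. Tfrc, the transferrin receptor used by most dividing cells, rose from 119.0 to 151.8 CPM in CTRL to 255.7 to 641.1 CPM in CML 2wk (1.65, SE 0.185, adjusted p = 3.10e-06), while Tfr2 had fallen. Ppox, a late enzyme of haem synthesis, fell by 0.86 (SE 0.0882, adjusted p = 1.35e-06). The ferritin chains Fth1 (0.12, SE 0.0900) and Ftl1 (0.19, SE 0.104) were not called.

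Of 19 other red cell membrane and surface genes, 9 fell, 4 rose and 6 were not called (median -0.39). Mfsd2b, the sphingosine 1-phosphate exporter of red cells and platelets, went from 44.4 to 56.9 CPM in CTRL to 7.10 to 12.3 CPM in CML 2wk (-2.44, SE 0.131, adjusted p = 1.71e-08). Add1, an adducin found in many cells, fell by 0.82 (SE 0.0857, adjusted p = 1.52e-06) and Xk, the Kell partner, by 0.46 (SE 0.0761, adjusted p = 1.11e-04). Cd47 (0.039, SE 0.0674) and Tmod3 (-0.019, SE 0.0702), both broadly expressed, were not called.

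Among 17 late erythroblast and red cell enzymes, 11 fell, 3 rose and 3 were not called (median -0.60). Rnf123 (-0.75, SE 0.0693) and Ube2o (-0.60, SE 0.0667), ubiquitin ligases, and the mitochondrial carrier Ucp2 (-0.77, SE 0.0882) fell, whereas Mxi1 (-0.21, adjusted p = 0.0625) and Bpgm (-0.25, adjusted p = 0.0523) were not called. The 9 other globin genes, embryonic ones included, were too low to test: together they summed to 0.0735 to 0.310 CPM in CTRL and 0.0750 to 2.98 CPM in CML 2wk. Over these lists, 44 of 83 tested genes fell (53.0%) and 14 rose.

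**Figure D5:**
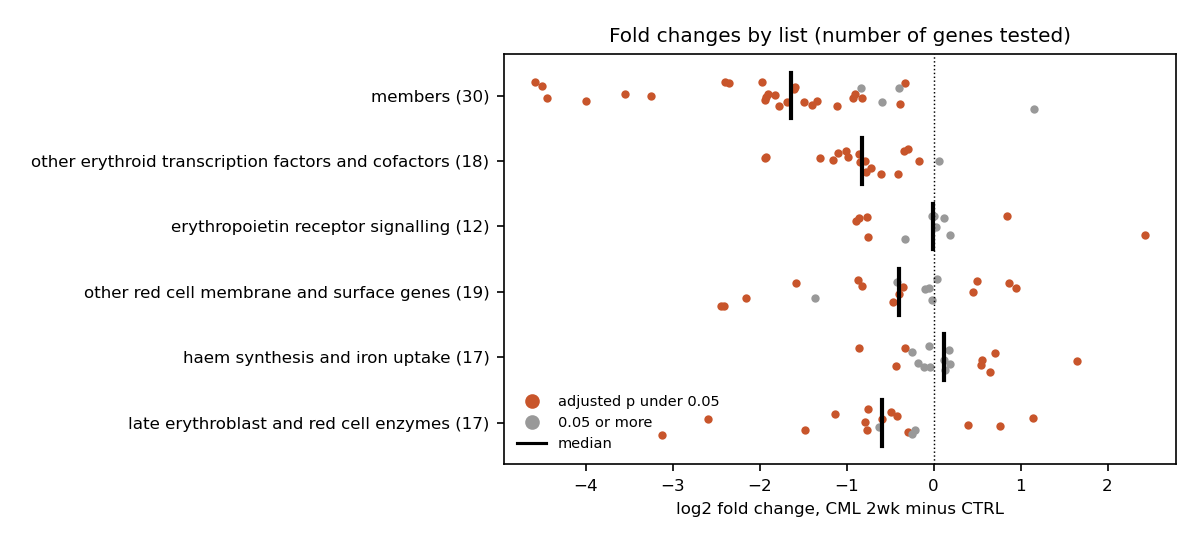
Log2 fold change of each tested gene, CML 2wk minus CTRL (x axis), for the members and 5 pathway lists, with the number of genes tested in brackets. Orange points passed the adjusted p of 0.05, grey points did not, and black bars are list medians, which run from -1.64 for the members to 0.12 for haem synthesis and iron uptake. Vertical scatter within a list has no meaning.

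Markers of other cells moved with the same comparison, and their part in the erythroid result was not tested. Of 10 megakaryocyte markers tested, which share Gata1 and Zfpm1 as regulators, 7 fell and 0 rose (median -0.80), and their summed level was 501.4 to 564.2 CPM in CTRL and 191.2 to 568.7 CPM in CML 2wk. Pf4, Vwf and Ppbp fell by 2.99, 2.66 and 2.76 on the log2 scale, and F2r and Itgb3 were not called. Of 12 mast cell and basophil markers tested, 10 rose and 0 fell (median 3.83; 1 fell without CTRL replicate 6 or CML 2wk replicate 1 or 3), with a summed level of 102.4 to 207.4 CPM in CTRL and 460.4 to 2705 CPM in CML 2wk. Mcpt8 rose by 2.43, Cd200r3 by 4.32 and Tpsb2 by 7.53, while Ms4a2 and Prss34 were not called. CML 2wk replicate 2 was highest for both that sum and Hbb-bt, and replicate 6 lowest for both. The match was not particular to these markers. The sum of the stroma markers had the same highest and lowest CML 2wk libraries. The megakaryocyte and macrophage sums were also highest in replicate 2. The source of Hbb-bt was not tested.

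Neutrophil and granulocyte precursor markers were called in both directions (6 of 12 rose, 4 fell), but without CTRL replicate 4, and also with the replicate block, 1 fell. Among those that rose were Ms4a3 (3.30), Ctsg (2.90) and Prtn3 (1.96). The summed level of these markers was lowest in replicate 2 and highest in replicate 4 within CTRL. S100a8, not called, was at 27.9 CPM in CTRL replicate 6 and 571.5 CPM in replicate 4. Of the 10 sorting-gate markers, 8 fell, Cd48 rose by 1.10 and Ly6a, which encodes Sca-1, was not called (0.38, SE 0.170, adjusted p = 0.0660). Without CML 2wk replicate 5, 2 of them rose. Kit, a marker of the gate and also a receptor of erythroid progenitors, fell from 681.0 to 800.0 CPM in CTRL to 323.1 to 521.7 CPM in CML 2wk (-0.86, SE 0.101, adjusted p = 4.68e-06). Hlf, a stem cell factor, fell by 1.64. Of 7 eosinophil markers tested 4 fell and 1 rose, of 12 macrophage markers 2 fell and 0 rose, and of 11 B, T and NK cell markers 1 fell and 2 rose. These small counts moved when 1 library was left out. The eosinophil markers that rose then numbered 0 to 1, and the macrophage markers that fell 1 to 4 (4 without CML 2wk replicate 2). The B, T and NK cell markers that fell numbered 0 to 4 (4 without CML 2wk replicate 4), and those that rose 1 to 2. Over all 23 alternatives with a test, 1 to 8 macrophage markers and 0 to 5 B, T and NK cell markers fell. Stroma markers summed to 176.4 to 210.5 CPM in CTRL and 105.8 to 5710 CPM in CML 2wk, with the highest sum in replicate 2. Of 10 stroma markers tested 5 rose and 0 fell, but over the alternatives 1 to 7 rose and 0 to 7 fell. Without CML 2wk replicates 2 and 4, chosen after stromal genes were seen to be high there, 27 members were called lower.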

How the data were processed

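RNA-seq of 12 murine LSK libraries was analysed, 6 CTRL and 6 CML 2wk, grouped by their labels. The deposited values are raw counts per Ensembl gene that the authors made from their reads, with no normalisation. The submitters' processing notes name FastQC 0.11.9, fastp 0.23.2, STAR 2.7.10a, featureCounts 2.0.1, DESeq2 1.36.0 and the builds mm39 and GRCm39, whereas the study's methods name other trimming and alignment tools and a human build. The annotation release, the strand setting and the rule for multi-mapping reads are not given in the sources used here, so overlapping genes and near copies are uncertain. Of 56748 gene IDs, 52073 matched a symbol, and the 4675 others took 1.34% to 3.75% of counts.

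Genes were filtered with filterByExpr (18438 kept), scaled with TMM and tested with the quasi-likelihood test of edgeR 4.0.16 in R 4.3.3, with p-values adjusted (Benjamini-Hochberg) across the genes tested and a threshold of 0.05. The SE is the absolute log2 fold change divided by the square root of F. DESeq2 1.42.0 was an alternative, and other scalings, filters, thinning, a replicate block and leaving out libraries were tried. Sums, shares and figures were made with Python 3.11.15, pandas 2.3.3, scipy 1.17.1 and matplotlib 3.10.9. A count of 0 was read as up to 3 counts. No libraries were copies of each other (lowest chi-square per degree of freedom 4.07). Promoters came from RefSeq (GRCm38.p6) and coding sequences from GENCODE M21 (GRCm38), and no coordinate was converted between builds.

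The members and lists were chosen with earlier results of these data known. All 32 members are named. Of each other list, the 3 genes with the smallest adjusted p among those called and the 2 uncalled genes of highest mean CPM are named, besides Kit, Ly6a, Xist, Ddx3y and Gata2. Apex2, the other overlapping genes named and the share of Hbb-bt were chosen after their values were seen. Some genes counted in the lists are not reported here by name.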

Additional observations from a re-analysis of the deposited data

Results flagged for a closer look

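In 62 groups of 6 values (30 genes and the Hbb-bt share, in each group of libraries), 8 held a library whose gap to the nearest of the others exceeded Dixon's 95% critical value, where chance flags about 1 in 20, or 3.1. In CML 2wk, replicate 4 stood apart from the other libraries for alpha-globin, with Hba-a1 at 2.01 CPM against at most 0.385 CPM elsewhere in the group, and Hba-a2 at 1.36 CPM against at most 0.490 CPM. The same library had the lowest share of Hbb-bt among beta-globin counts, 36.0%, with the next at 82.7%. In CTRL, the share in replicate 3 was highest at 21.7%, with the next at 14.9%. Ache was at 0 CPM in CML 2wk replicate 2, where the next lowest library was at 1.53 CPM. CTRL replicate 5 was high for Rhd, at 5.93 CPM with the next at 3.55 CPM, and for Cldn13, at 3.10 CPM with the next at 1.53 CPM. Tmod1 was low in CTRL replicate 6, at 0.981 CPM with the next at 1.53 CPM.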

How the results depend on the processing

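Over 23 alternatives with a test, 23 to 27 members were called lower, and 23 of the members were called lower in all of them, the exceptions among the 26 being Epb42, Tspo2 and, where it no longer passed the filter, Trim10. Thinning to the smallest library total gave 23 members. The number of members called higher, 0 as reported, was 1 (Hbb-bt) with upper-quartile scaling and 1 with replicates 1 to 5 only, and ranged from 0 to 1 when each library was left out. With the replicate block, 27 members were called lower, Rhag being the addition (log2 fold change -1.14). The replicate numbers did not pair the libraries (correlations of deviations -0.125 to 0.0679, 0 of 6 pairs over 0.1, and 1 CTRL library matching its own number best). The number of genes called overall was 9975 to 12130. Between replicates 6 alone, Sptb turned to 0.00037. Without CML 2wk replicates 2 and 4, the log2 fold changes of the stroma genes Sparc (-0.10), Col3a1 (-3.15) and Fn1 (-4.28) turned below 0. That of Sparc was then close to 0. The cause of these changes was not tested. Depth limits Trim10, Hba-a1, Hba-a2, Tspo2 and Cldn13, which had 6 to 89 counts over the 6 CML 2wk libraries.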
